A study of Mus musculus with 4 samples.

Results

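The colony-stimulating factors and their receptors were followed gene by gene through cells taken from mouse tumours treated with interleukin 27 (IL-27) or vehicle. The members were the 8 genes Csf1, Csf2, Csf3, Csf1r, Csf2ra, Csf2rb, Csf2rb2 and Csf3r, matched by symbol among the 32285 genes counted. They comprise 3 ligand genes and 5 receptor genes, and all 8 were found. Csf1 encodes M-CSF, which acts through the receptor kinase Csf1r and maintains monocytes and macrophages. Csf2 encodes GM-CSF, whose receptor pairs the ligand-specific chain Csf2ra with the common beta chain Csf2rb, and which acts on granulocytes, macrophages and dendritic cells. Csf3 encodes G-CSF, which acts through Csf3r and drives neutrophil production. Csf2rb2 is a second beta chain of the mouse that serves the IL-3 receptor.

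OV2944-HM1 cells, an established ovarian cancer line of the mouse, were implanted under the skin of B6C3F1 mice aged 6 to 8 weeks. The IL-27 group was given recombinant mouse IL-27 by injection into the tumour, at 100 ng a mouse, from implantation and then on alternate days, and the control group received vehicle by the same route. Cells were collected on day 14 and enriched on CD45 beads, which bind leukocytes, before droplet single-cell RNA sequencing. GEO lists 4 entries for the 2 groups, but a single matrix stands for each group and its cells were not tied to entries, so every group counts as n = 1. No difference below has a replicate check or a test, and whether entries came from separate animals was not stated. Intervals in this text are 95% intervals that cover counting error only, and a gene is called higher or lower where the interval of its ratio (IL-27 over control) lies off 1.

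Depth was counted in UMIs, the molecular tags that mark each captured transcript. It came to 43868189 over 10183 barcodes with IL-27 (median 1847) and to 54049661 over 10784 barcodes in the control (median 2384.5). After filtering, 9823 IL-27 cells and 10617 control cells remained, and 133 barcodes occurred in both matrices. The median mitochondrial share was 0.637% of UMIs with IL-27 and 0.373% in the control. The labels call the cells lymphocytes, but neutrophil-like cells were the largest class, with 4084 IL-27 cells and 5047 control cells. Cells of the T class numbered 600 with IL-27 and 529 in the control. Tumour-like cells numbered 267 with IL-27 and 308 in the control although the sort should remove them. They were deep, with a median depth of 36765 UMIs per IL-27 cell and 38087.5 per control cell. The class joined unlike clusters. Cluster 19, led by the keratins Krt8, Krt18 and Krt19, had 466 cells and a median of 45661 UMIs. Cluster 21, led by 2410006H16Rik and Gas5, had 109 cells and a median of 1237 UMIs. Levels are given as CPM, the count of a gene scaled to the total of its class. Classes were built from clusters computed without the 8 members. The members did not define the clusters, but the name of the cycling cluster below took account of its low Csf3r level.

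Counting of the beta chains has a limit that belongs beside every value of Csf2rb and Csf2rb2. The genes lie next to each other on chromosome 15 (GRCm38, Csf2rb at chr15:78325752-78353847 on the plus strand and Csf2rb2 at chr15:78282507-78305721 on the minus strand), and their coding sequences were 95.2% identical over 2628 aligned bases. The kit reads transcripts from their 5′ end. In the first 300 transcript bases, 98.5% of the bases that aligned were identical, with unaligned bases left out of this share. Coding starts at base 259 of the Csf2rb transcript and at base 294 of the Csf2rb2 transcript. Of all 90-base windows of the transcripts, 8.43% of those of Csf2rb also occurred in Csf2rb2. The first 150 coding bases are shown because they carry this limit, with capitals marking the 6 positions that differ (GENCODE M21 transcripts, 5′ to 3′).
Csf2rb: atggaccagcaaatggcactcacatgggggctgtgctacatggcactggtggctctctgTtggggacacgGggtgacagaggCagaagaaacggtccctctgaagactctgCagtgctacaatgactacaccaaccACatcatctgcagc
Csf2rb2: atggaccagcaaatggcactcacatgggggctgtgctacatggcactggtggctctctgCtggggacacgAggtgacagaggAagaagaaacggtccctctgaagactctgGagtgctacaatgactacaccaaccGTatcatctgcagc
Reads that fall in the shared stretches cannot be assigned to either gene, so the split between the pair is uncertain.

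The transcripts of each ligand sat mainly in a single class, and the class was not the same for all. Tumour-like cells held 98.1% of the Csf2 UMIs of the IL-27 matrix and 97.6% of those of the control matrix. Neutrophil-like cells held 55.2% of Csf1 UMIs with IL-27 and 66.5% in the control. They also held 70.2% of Csf3 UMIs with IL-27 and 62.9% in the control. Without the tumour-like, fibroblast-like and endothelial-like cells, an alternative chosen after the data were seen, neutrophil-like cells held 78.0% of Csf1 UMIs with IL-27 and 80.5% in the control. These shares depend on how many cells of each class were caught as well as on the level per cell.

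**Figure D1:**
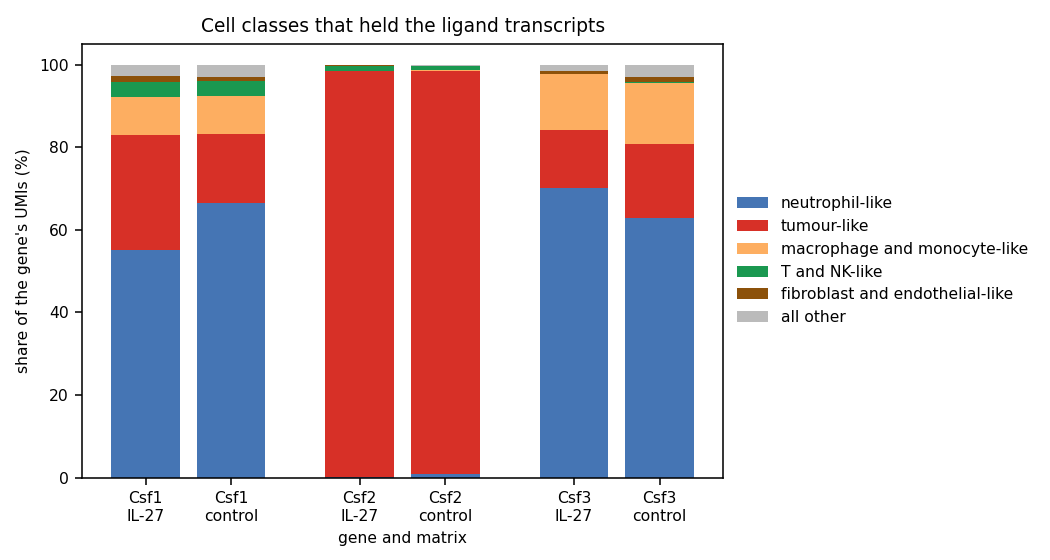
Share of the UMIs of Csf1, Csf2 and Csf3 (y axis, %) by cell class (colours), with the IL-27 bar left of the control bar for each gene. Tumour-like cells fill nearly the whole bar of Csf2 (98.1% with IL-27 and 97.6% in the control), and neutrophil-like cells fill most of the bars of Csf1 and Csf3.

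Csf2 (chr11:54247271-54249667, minus strand, GRCm38) had 14507 UMIs in IL-27 tumour-like cells, against 17291 in control tumour-like cells. These were 1361 CPM with IL-27 and 1375 CPM in the control, a ratio of 0.990 (0.968 to 1.01), so the level did not differ beyond counting error. A few cells carried much of it: 29 IL-27 cells and 30 control cells held at least 50% of these UMIs. The ratio was 0.987 (0.965 to 1.01) in cluster 19 and 5.78 (2.89 to 12.8) in the shallow cluster 21. The latter rests on 49 UMIs with IL-27 and 10 in the control. Taken over both clusters, the share of tumour-like cells with a Csf2 UMI was 82.0% with IL-27 (76.9 to 86.4) and 73.4% in the control (68.1 to 78.2). After thinning each cell to 1000 UMIs it was 48.6% with IL-27 and 39.0% in the control. Among neutrophil-like cells, whose median depth was 1559.5 UMIs with IL-27 and 2115 in the control, the thinned share was 0.274% with IL-27 and 0.559% in the control. Csf2 overlaps the gene Gm12223 on the opposite strand, and reads of the pair were not separated here.

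Lymphoid cells added little Csf2 beside the tumour-like cells. Without tumour-like, fibroblast-like and endothelial-like cells, 240 Csf2 UMIs remained with IL-27 and 404 in the control. Of these, NK-like cells held 42.1% with IL-27 and 17.8% in the control, and the T class 21.7% with IL-27 and 22.0% in the control. Neutrophil-like cells held 12.5% with IL-27 and 33.7% in the control. Mast cell or basophil-like cells held 12.5% with IL-27 and 10.9% in the control. Their level was 94.1 CPM with IL-27 and 139 CPM in the control, on 30 UMIs with IL-27 and 44 in the control. NK-like cells had 110 CPM with IL-27 (89.9 to 134) and 103 CPM in the control (80.4 to 129), a ratio of 1.07 (0.786 to 1.47). In each matrix 2 cells held at least 50% of these UMIs, and the ratio ran between 0.565 without the 8% highest doublet scores and 1.82 with classes from marker UMIs. Within them the cluster led by the granzymes Gzmc, Gzmd, Gzme and Gzmf had 220 CPM with IL-27 and 185 CPM in the control. The T cluster led by Tnfsf8 and Tnfsf11, the ligand genes of CD30 and RANK, showed 275 CPM with IL-27 and 1011 CPM in the control. This last value came from 1 cell of 18, which held all 73 UMIs, and the IL-27 value came from 3 cells of 41. These values describe single cells, not the cluster.

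Csf1 (chr3:107741048-107760469, minus strand) was lower in IL-27 neutrophil-like cells. The level was 763 CPM with IL-27 (743 to 784) and 855 CPM in the control (838 to 872), a ratio of 0.892 (0.863 to 0.923). The thinned share of cells with a UMI was 33.0% with IL-27 and 37.6% in the control. The direction was not shared by all 5 neutrophil-like clusters. It was lower in the cluster led by Ciart and Atf3, with 703 CPM with IL-27 and 948 CPM in the control. It was also lower in the interferon cluster led by Rsad2 and Ifit1 (771 CPM with IL-27 and 937 CPM in the control) and in the cluster led by Lcn2 (608 CPM with IL-27 and 801 CPM in the control). In the cluster led by Tnf and Il23a, where Csf1 was highest, it was 1662 CPM with IL-27 and 1565 CPM in the control, a ratio of 1.06. In the cluster led by Retnlg and Cxcr2, where it was lowest, it was 403 CPM with IL-27 and 366 CPM in the control, a ratio of 1.10 (1.01 to 1.20).

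In tumour-like cells Csf1 ran the other way, with 248 CPM with IL-27 and 198 CPM in the control, a ratio of 1.25 (1.18 to 1.32). The ratio was 1.23 in cluster 19 and 9.44 in the shallow cluster 21, the latter on 48 UMIs with IL-27 and 6 in the control. Csf1 was lower with IL-27 in Dcstamp macrophage-like cells, named for a gene of cell fusion, at 91.6 CPM with IL-27 and 121 CPM in the control. Of the 2 clusters of that class, the one led by Pf4 and Arg1 had a ratio of 0.530 (0.441 to 0.634) and the one led by Dcstamp and Ccl24 a ratio of 0.943 (0.827 to 1.07), an interval that holds 1. The ratio of the class, 0.760, was 0.991 without the 8% highest doublet scores and 0.969 with classes from marker UMIs. The T class had 88.2 CPM with IL-27 and 130 CPM in the control, a ratio of 0.676 (0.588 to 0.777). That ratio ran from 0.481 to 0.871 over 10 processing alternatives, of which 5 lay outside this interval. The T class leaves out 118 IL-27 and 194 control cells of T and NK clusters that got no name. Among these, T/NK cluster 9, of 160 cells, had 920 CPM of Cd3e and its best marker score for CD8 T cells. That cluster had 2 Csf1 UMIs in each matrix and is not counted among the CD8 T-like cells. The CD8 T-like cells, the T cells with most Csf1, had 263 CPM with IL-27 and 210 CPM in the control, a ratio of 1.26 (1.07 to 1.46), and they numbered 82 with IL-27 and 214 in the control. The lower level of the whole T class and the higher level of its CD8 T-like cells thus stood beside different numbers of CD8 T-like cells. The CD8 T-like cells themselves were split: the cycling cluster, led by histone genes, had 60.3 CPM with IL-27 and 137 CPM in the control, and the other cluster had 415 CPM with IL-27 and 267 CPM in the control. Mast cell or basophil-like cells had 414 CPM with IL-27 and 158 CPM in the control, but 1 IL-27 cell held 90 of the 132 UMIs, and the ratio of 2.62 was 1.59 without the top cell of each matrix.

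Csf3 (chr11:98701263-98703629, plus strand) had the fewest UMIs of the 8 genes, 1303 with IL-27 and 2046 in the control. In neutrophil-like cells it was higher with IL-27, at 133 CPM (125 to 142) against 110 CPM in the control (104 to 116), a ratio of 1.21 (1.11 to 1.32). The highest level was in the cluster led by Lcn2, 306 CPM with IL-27 and 217 CPM in the control, a ratio of 1.41 (1.25 to 1.60). The Ciart and Atf3 cluster had the same ratio of 1.41 (1.01 to 1.95) at lower levels, the interferon cluster had a ratio of 0.869 (0.618 to 1.20), and the Retnlg and Cxcr2 cluster had 99.6 CPM with IL-27 and 104 CPM in the control. In tumour-like cells Csf3 was lower, at 17.2 CPM with IL-27 and 29.3 CPM in the control, a ratio of 0.587 (0.489 to 0.702). There 5 cells held at least 50% of the UMIs in each matrix, and thinning to 1000 UMIs gave a ratio of 0.125.

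**Figure D2:**
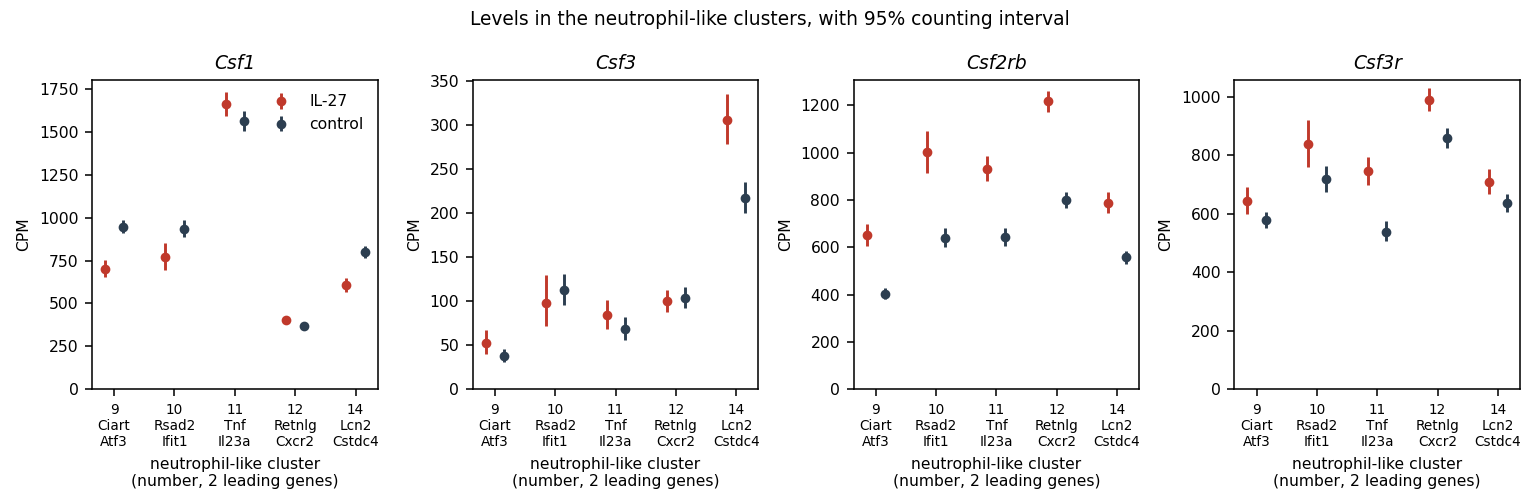
CPM (y axis) of Csf1, Csf3, Csf2rb and Csf3r in the 5 neutrophil-like clusters (x axis, with number and 2 leading genes), IL-27 left of control, bars showing the 95% counting interval. Csf2rb and Csf3r lie higher with IL-27 in all 5 clusters, whereas Csf1 lies higher in 2 and lower in 3.

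Csf3r (chr4:126024550-126044440, plus strand) was nearly restricted to neutrophil-like cells, which held 94.6% of its UMIs with IL-27 and 93.2% in the control. Their level was 810 CPM with IL-27 (789 to 832) and 674 CPM in the control (659 to 689), a ratio of 1.20 (1.16 to 1.24). All 5 clusters were higher with IL-27, from a ratio of 1.11 in the Ciart and Atf3 and Lcn2 clusters to 1.38 in the Tnf and Il23a cluster. Among T cells 3 of 600 with IL-27 and 4 of 529 in the control had a Csf3r UMI, shares of 0.50% with IL-27 (0.103 to 1.45) and 0.756% in the control (0.206 to 1.92), at a median depth of 4085 UMIs with IL-27 and 5936 in the control. The same unthinned share of neutrophil-like cells was 60.1% with IL-27 and 64.5% in the control, and the thinned share was 48.5% with IL-27 and 45.3% in the control. Cluster 3, led by replication histone genes, had the best marker score for neutrophil precursors but only 9.91 CPM of Csf3r with IL-27 and 15.9 CPM in the control. It is therefore called the cycling cluster here, and this name rests in part on the level of a member. Its Csf3r UMIs numbered 14 with IL-27 and 25 in the control.

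Csf1r (chr18:61100598-61132149, plus strand) marked the mononuclear phagocytes and did not differ between the groups over each of these classes beyond counting error. Monocyte-like cells had the highest level, 348 CPM with IL-27 and 336 CPM in the control, a ratio of 1.04 whose interval holds 1. Macrophage-like cells had 245 CPM with IL-27 and 255 CPM in the control, and Dcstamp macrophage-like cells had 243 CPM with IL-27 and 246 CPM in the control, whose intervals overlap. Within the macrophage-like class, the cluster led by C1qb and C1qa, with a median of 842 UMIs per cell with IL-27 and 948 in the control, was higher with IL-27, at 124 CPM against 93.9 CPM in the control (ratio 1.32, 1.02 to 1.69). The cluster led by Ccl8 and Apoe had 353 CPM with IL-27 and 399 CPM in the control (0.884), with an interval that holds 1. Type 2 conventional dendritic-like cells followed with 132 CPM with IL-27 and 148 CPM in the control. Neutrophil-like cells had a low level, 64.3 CPM with IL-27 and 47.7 CPM in the control, a ratio of 1.35 (1.19 to 1.53). Csf1r overlaps Hmgxb3 on the opposite strand.

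**Figure D3:**
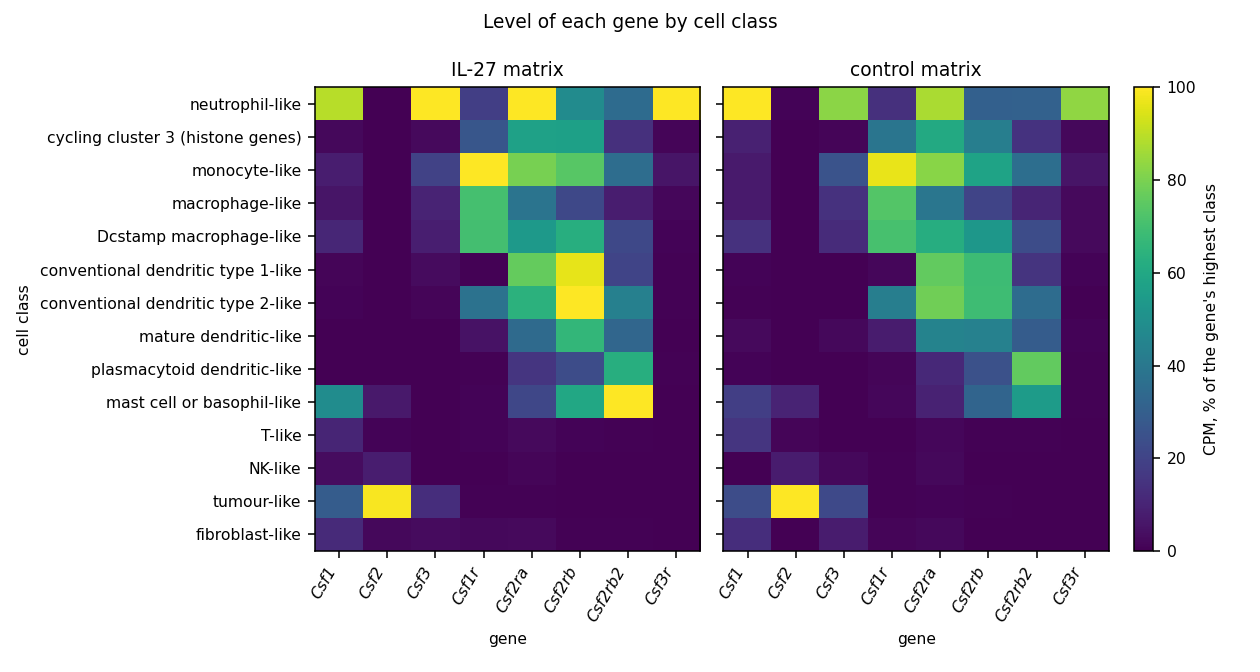
CPM of each of the 8 genes (x axis) by cell class (y axis), as a percentage of the gene's highest class over both matrices, with IL-27 at the left and control at the right. Csf2 is bright only in tumour-like cells and Csf3r only in neutrophil-like cells, whereas the GM-CSF receptor chains spread over the myeloid classes.

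Csf2ra (chr19:61223957-61228429, minus strand) was spread over the myeloid classes. Neutrophil-like cells had 265 CPM with IL-27 and 231 CPM in the control, a ratio of 1.15 (1.08 to 1.22). Monocyte-like cells had 210 CPM with IL-27 and 217 CPM in the control, and type 1 conventional dendritic-like cells had 202 CPM with IL-27 and 201 CPM in the control. It was lower with IL-27 in Dcstamp macrophage-like cells, at 142 CPM against 165 CPM in the control, a ratio of 0.861 (0.790 to 0.937). It was also lower in type 2 conventional dendritic-like cells (0.818) and in mature dendritic-like cells (0.774, 0.621 to 0.965).

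Csf2rb was higher with IL-27 in most myeloid classes. Neutrophil-like cells had 956 CPM with IL-27 (933 to 979) and 606 CPM in the control (592 to 621), a ratio of 1.58 (1.52 to 1.63). In these cells 11.2% of the genes with at least 20 UMIs were at least 1.5-fold higher with IL-27 and 9.32% at least 1.5-fold lower. Of the 8 members tested there, 1 was past that fold upward, Csf2rb, and 1 downward, Csf2. The Csf2 value rests on 30 UMIs with IL-27 and 136 in the control, and its ratio of 0.375 was 1.04 with classes from marker UMIs. Its level, 4.37 CPM with IL-27 and 11.7 CPM in the control, stands beside 3.38 CPM with IL-27 and 4.46 CPM in the control in Dcstamp macrophage-like cells. The thinned share of neutrophil-like cells with a Csf2rb UMI was 52.7% with IL-27 (51.0 to 54.4) and 39.7% in the control (38.2 to 41.1). The ratio lay between 1.41 and 1.61 in the 5 neutrophil-like clusters. It was 1.51 in mature dendritic-like cells, where 10.6% of genes were past 1.5-fold upward, and 1.87 (1.57 to 2.23) in mast cell or basophil-like cells, where 15.4% were. It was 1.45 in type 2 and 1.40 in type 1 conventional dendritic-like cells, 1.28 in monocyte-like cells and 1.19 in Dcstamp macrophage-like cells. In macrophage-like cells the ratio was 1.07 (0.978 to 1.16) and in plasmacytoid dendritic-like cells 0.944 (0.740 to 1.21), intervals that hold 1.

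Transcript length moved with the ratio over the 8873 genes of neutrophil-like cells with a known length. The median log2 ratio was -0.13 in the shortest of 5 length groups and 0.21 in the longest. The group that holds Csf2rb, whose longest transcript has 4900 bases, had a median of 0.11. From the shortest to the longest group, the median also rose from -0.20 to 0.13 in monocyte-like cells. In Dcstamp macrophage-like cells it rose from -0.14 to 0.09. The part of length in the Csf2rb ratios of these classes was not tested. Csf2rb2, of 4740 bases and in the same group, had 326 CPM in IL-27 neutrophil-like cells and 293 CPM in the control ones, a ratio of 1.11 (1.06 to 1.18).

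**Figure D4:**
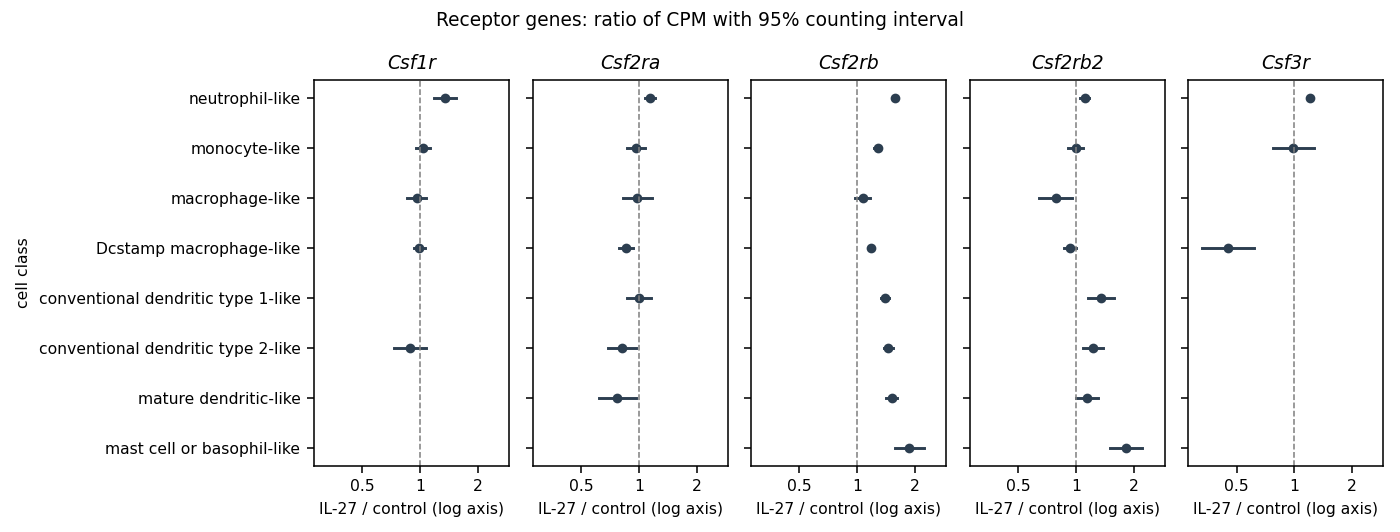
Ratio of CPM, IL-27 over control (x axis, log scale), for the 5 receptor genes in 8 myeloid classes (y axis), with 95% counting intervals, for pairs with at least 100 UMIs. The points of Csf2rb lie right of 1 in all 8 classes, though the interval of macrophage-like cells holds 1, and those of Csf1r in monocyte-like and macrophage-like classes lie near 1.

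With IL-27 Csf2rb2 was highest in mast cell or basophil-like cells, and in the control in plasmacytoid dendritic-like cells. Mast cell or basophil-like cells had 938 CPM with IL-27 (835 to 1050) and 515 CPM in the control (439 to 601), a ratio of 1.82. Plasmacytoid dendritic-like cells had 587 CPM with IL-27 and 712 CPM in the control, with overlapping intervals. It was higher with IL-27 in type 1 (1.36) and type 2 (1.23) conventional dendritic-like cells, and lower in macrophage-like cells (0.784, 0.644 to 0.953), where the ratio was 1.01 at clustering resolution 0.5. In monocyte-like cells the ratio was 0.997.

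Over the named classes with at least 30 cells in each matrix, 77 pairs of a member and a class had at least 20 UMIs. Of these 12 were at least 1.5-fold higher with IL-27 and 10 at least 1.5-fold lower. Over all 116702 pairs of a gene and a class counted in the same way, 9.14% were past that fold upward and 10.5% downward. Of the 12 higher pairs, 4 were in mast cell or basophil-like cells, of which there were 47 with IL-27 and 64 in the control. A further 2 were in fibroblast-like cells. Another was Csf1 in NK-like cells, with 25 UMIs with IL-27, 21 of them in 1 cell, and 0 in the control. Of the 10 lower pairs, 3 were in tumour-like cells. With at least 100 UMIs, 56 pairs of a member and a class remained, of which 6 were higher and 4 lower. The share over all genes at that limit was not counted, so the shares above do not apply to these pairs.

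UMIs of the 2 chains of the GM-CSF receptor coincided in neutrophil-like cells at close to the rate their separate shares give. Among 3290 thinned IL-27 neutrophil-like cells, 406 held UMIs of both Csf2ra and Csf2rb, where the product of the separate shares gives 381. Among 4473 control cells the count was 364, where the product gives 341. Csf1 and Csf3, both held mainly by neutrophil-like cells, fell together in 59 IL-27 cells, where the product gives 85.8, and in 69 control cells, where it gives 89.1. These ligands were highest in different neutrophil-like clusters, Csf1 in the Tnf and Il23a cluster and Csf3 in the Lcn2 cluster.

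**Figure D5:**
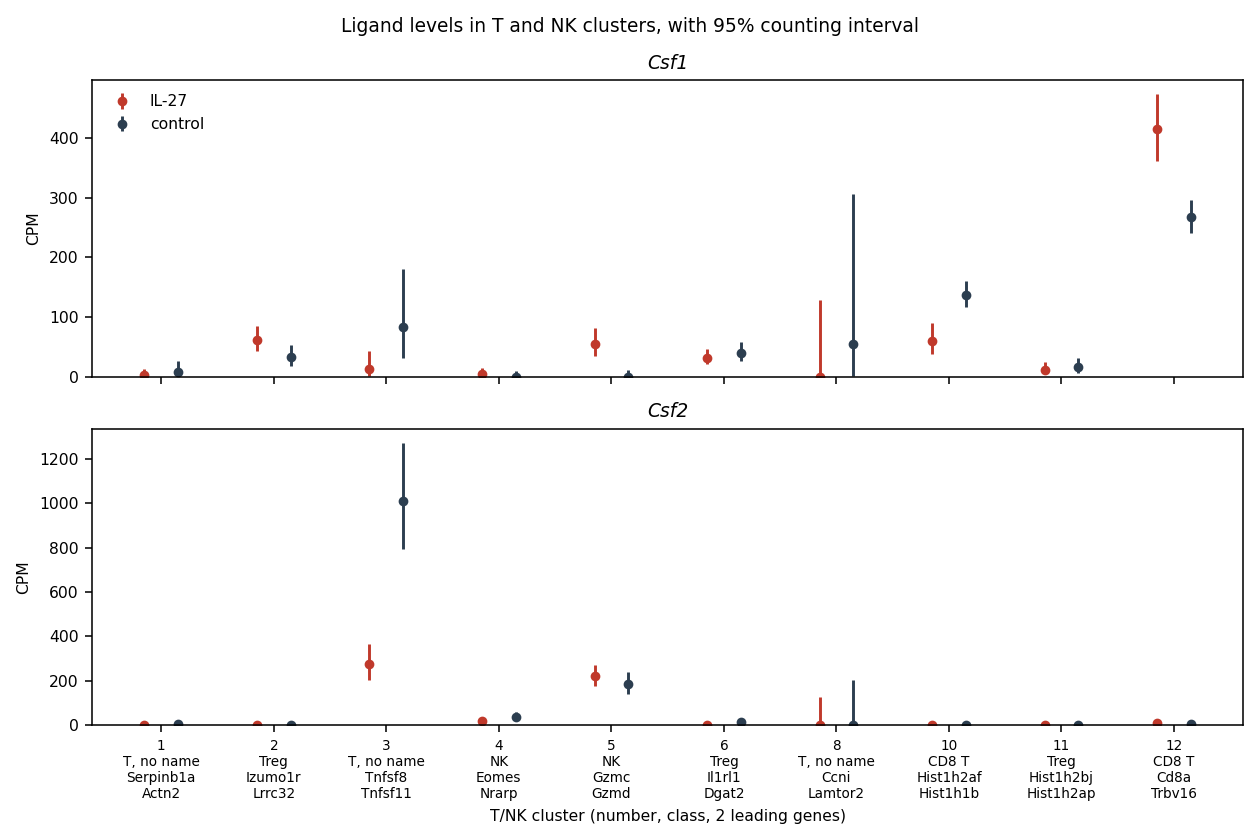
CPM of Csf1 and Csf2 (y axes) in the T and NK clusters (x axis, with number, class and 2 leading genes), IL-27 left of control, bars showing the 95% counting interval. Among the clusters plotted Csf1 is highest in cluster 12 of CD8 T-like cells, and the high control value of Csf2 in cluster 3 comes from 1 cell.

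Other genes of the pathways, from fixed lists, were counted in neutrophil-like cells. Of 8 JAK and STAT signalling genes, 0 were past 1.5-fold in either direction, and their median log2 ratio was 0.21 against 0.02 over all genes. Jak2, the kinase that binds the beta chain, had 458 CPM with IL-27 and 331 CPM in the control, and Inpp5d, the inhibitory phosphatase SHIP1, had 187 CPM with IL-27 and 126 CPM in the control. Of the 4 measured inducers of colony-stimulating factors, 0 were past 1.5-fold, with a median log2 ratio of -0.31. Il1b had 12365 CPM with IL-27 and 17009 CPM in the control, and Tnf had 1716 CPM with IL-27 and 2238 CPM in the control. Of 8 feedback and target genes, 0 were past 1.5-fold. Cish, a STAT5 target, had 301 CPM with IL-27 and 285 CPM in the control, and Socs3, a STAT3 target, had 648 CPM with IL-27 and 898 CPM in the control. These list counts stand beside the 11.2% of genes that were past that fold upward and the 9.32% downward. Of 6 measured granulopoiesis genes, 1 was past 1.5-fold upward, the transcription factor gene Cebpa (13.4 CPM with IL-27 and 8.22 CPM in the control), and 1 downward, the granule protease gene Prtn3 (12 UMIs with IL-27 and 35 in the control, an interval that holds 1). Of 6 measured genes driven by GM-CSF in myeloid cells, 1 was past 1.5-fold upward, the chemokine gene Ccl22 (7.57 CPM with IL-27 and 2.57 CPM in the control), and 1 downward, Irf4 (6 UMIs with IL-27 and 20 in the control, an interval that holds 1). Of 8 macrophage genes that depend on Csf1r, of 3 measured other ligands and receptors of the family and of 8 housekeeping genes, 0 were past 1.5-fold. The housekeeping median was -0.18.

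The genes with the most similar levels over 23 clusters were ranked by the lower of the Pearson r of log2(CPM + 10) in the 2 matrices, given here as a description of clusters that share libraries. By that rank, which another gene can exceed in a single matrix, Csf3r was most like Il1f9, with r of 0.98 with IL-27 and 0.99 in the control. Csf1r was most like Ccl9 (0.93 with IL-27 and 0.91 in the control), Csf3 most like Trem3 (0.93 with IL-27 and 0.90 in the control) and Csf1 most like Lasp1 (0.86 with IL-27 and 0.88 in the control). Csf2 was most like Arhgef5 (0.97 with IL-27 and 0.90 in the control). Its level was far above that of the other clusters in tumour-like cluster 19 (1369 CPM with IL-27 and 1387 CPM in the control). The r of Csf2 therefore leans on few clusters. Csf2ra and Csf2rb both had Spi1, which encodes the myeloid factor PU.1, as their closest gene, with r of 0.95 with IL-27 for each and of 0.94 and 0.92 in the control. Csf2rb2 was most like the kinase gene Btk (0.90 with IL-27 and 0.88 in the control).

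Because Spi1 led that ranking for Csf2ra and Csf2rb, promoters were searched for the letters GAGGAA, a core of PU.1 sites, on both strands. RefSeq windows of 300 bases (250 before and 50 after the start, GRCm38.p6) were at hand for 5 members. These were Csf1, Csf2, Csf2ra, Csf2rb2 and Csf3r, so Csf2rb was not searched. Spi1 was not among the 5 genes most like Csf2rb2 or Csf3r. The letters occurred in 3 of them, Csf2ra, Csf2rb2 and Csf3r, and in 28.3% of all 32851 windows. The windows of Csf2ra (chr19:61228369-61228668, minus strand) and Csf3r (chr4:126024409-126024708, plus strand) are shown 5′ to 3′ with the matches in capitals. The 2 matches of Csf2ra lie side by side.
Csf2ra: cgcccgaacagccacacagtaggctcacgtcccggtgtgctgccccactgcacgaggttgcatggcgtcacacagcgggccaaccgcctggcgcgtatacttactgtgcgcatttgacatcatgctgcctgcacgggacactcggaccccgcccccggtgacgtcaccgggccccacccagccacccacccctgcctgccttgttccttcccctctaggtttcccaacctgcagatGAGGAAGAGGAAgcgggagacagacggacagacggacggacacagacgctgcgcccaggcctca
Csf3r: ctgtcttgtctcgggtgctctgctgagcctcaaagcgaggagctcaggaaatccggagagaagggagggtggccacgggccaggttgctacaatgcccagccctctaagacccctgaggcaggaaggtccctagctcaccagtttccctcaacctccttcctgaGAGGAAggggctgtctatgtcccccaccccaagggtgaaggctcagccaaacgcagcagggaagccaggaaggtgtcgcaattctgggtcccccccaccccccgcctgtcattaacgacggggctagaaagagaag
A match is a description of the letters and not of binding.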

How the data were processed

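The deposited counts are UMIs per gene and cell barcode, in a separate matrix for each group, and the authors left them unnormalized. The submitters' processing notes name Cell Ranger 4.0, Seurat 3.2.0 and mm10, and per the file headers Cell Ranger 4.0.0 wrote both matrices. Whether counting used the strand, and what Seurat did, is not given in the sources used here. Members and gene lists were chosen with earlier results of these data known.

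Barcodes below 200 genes or 500 UMIs, or with 10% or more mitochondrial UMIs, were left out (193 IL-27 and 167 control barcodes removed). Scrublet called 167 IL-27 doublets and 0 control doublets, so it did not work in the control matrix, where doublets remain. Both matrices were clustered together in scanpy 1.11.5 without the 8 members (2000 variable genes, 30 components, 15 neighbours, Leiden resolution 1.0), and T and NK clusters were clustered again. Classes took the best score of fixed marker sets with at least 3 markers at 50 CPM. The naming thresholds, and the rule that T clusters need Cd3e at 200 CPM, were set after the data were seen, and the T class depends on them. Levels have exact Poisson intervals, shares exact Clopper-Pearson intervals and ratios exact conditional binomial intervals. The ratio script was checked on simulated data. Besides the members, the text names genes of the fixed lists, the most similar genes by r (among genes with at least 500 UMIs) and the leading genes of clusters. With 1 matrix per group no test was made.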

Additional observations from a re-analysis of the deposited data

How the results depend on the processing

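No paired analysis was possible because each group is 1 matrix and no result comes from a test. Ratios are IL-27 over control. Csf2rb in neutrophil-like cells lay between 1.51 (classes from each cell's marker UMIs) and 1.62 over 10 alternatives, and Csf3r there between 1.16 and 1.21. In Dcstamp macrophage-like cells Csf2rb was 1.14 without the 8% highest doublet scores and with every cell weighing the same, 1.23 at resolution 0.5, 1.24 at resolution 2.0 and 1.27 with classes from marker UMIs. Csf1 in neutrophil-like cells was 0.821 at resolution 2.0. Csf2 in tumour-like cells was 1.04 without the 8% highest doublet scores, 1.02 with every cell weighing the same, 1.03 scaled by the median gene and 0.855 thinned to 1000 UMIs. Thinning gave 1.44 for Csf3 in neutrophil-like cells and 1.06 for Csf1r in Dcstamp macrophage-like cells. At 2-fold, 5 of 77 pairs of a member and a class were higher and 6 lower. At 1.5-fold with at least 100 UMIs, 6 of 56 were higher and 4 lower. With at least 1 UMI in each matrix, 16 of 94 were higher and 21 lower. The shares over all pairs of a gene and a class were not counted under these rules.

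Of 56 ratios followed, 23 lay on the other side of 1 under at least 1 alternative. For 15 of these the interval of the main value already holds 1, among them the ratios of Csf2 in tumour-like cells (0.855 to 1.04) and Csf2rb in macrophage-like cells (0.895 to 1.23). The other 8 were called in 1 direction and turned, and the cause was not tested. With classes from marker UMIs, Csf3r in Dcstamp macrophage-like cells was 1.07 (main value 0.453) and Csf2rb in T cells 0.492 (main 1.73). Csf2 in neutrophil-like cells was then 1.04 (main 0.375) and Csf2rb in tumour-like cells 1.04 (main 0.692). Csf2rb in tumour-like cells was also 1.51 without the 8% highest doublet scores, 1.36 with every cell weighing the same and 1.13 thinned. For Csf1 in the cycling cluster (main 0.217), the value set beside it was 1.86, in cells whose marker UMIs were highest for neutrophil precursors. Those cells were picked by their own markers and need not belong to the cycling cluster. Csf2rb2 in macrophage-like cells was 1.01 at resolution 0.5 (main 0.784). In the cycling cluster Csf1r was 1.34 with every cell weighing the same and 1.09 thinned (main 0.683), and Csf2rb was 0.994 thinned (main 1.32).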
